A study of Mus musculus with 12 samples.

Results

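Wild-type (*Tk2*+/+) hind limb skeletal muscle was compared with wild-type heart in C57BL/6 mice that were 11 days old. The comparison used 6 of the 12 arrays of the series, 3 of skeletal muscle and 3 of heart, taken by the genotype and tissue in their labels and by no measured value. The other 6 arrays came from the same tissues of *Tk2*-/- knockout mice of the same strain and age, and their values are given only where stated. *Tk2* encodes thymidine kinase 2, a mitochondrial enzyme of the deoxynucleotide salvage pathway, and the study asked how its loss affected each tissue, and the wild-type arrays are its controls. The labels name no treatment. The study's methods give 3 different mice per genotype, and neither the hind limb muscles taken nor the parts of the heart are named in the sources used here. Total RNA was labelled with biotin and hybridised to Affymetrix Mouse Gene 1.1 ST arrays, which carry probes along the length of each transcript. The deposited signals were analysed as log2(signal + 16) for 18820 genes, and every difference below is skeletal muscle minus heart on this scale, so that a positive value means a higher signal in skeletal muscle. Test values are from limma across all 18820 genes, 2-sided, with Benjamini-Hochberg adjustment, and a gene is called higher in a tissue only where its adjusted p was under 0.05. A difference given below with no remark on its call passed that test. Over the 172 called genes named here, the standard error of the difference was 0.105 to 1.37 with a median of 0.139, the highest adjusted p was 0.0355, and the arrays of the tissues did not overlap for 171, *Bmp10* being the exception.

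Skeletal muscle and heart are both striated: their cells contract by sliding actin past myosin in sarcomeres, under the control of calcium. Skeletal muscle fibres are long cells with many nuclei that fire only when a motor nerve releases acetylcholine, and they release calcium through a direct contact between the channel of the surface membrane and the ryanodine receptor. Heart muscle cells are short, joined end to end by intercalated discs, beat without a nerve, release calcium in answer to calcium that enters, and burn mainly fatty acids, ketones and lactate. Many contractile and calcium-handling proteins are encoded by a skeletal and a cardiac member of one gene family. In the first weeks after birth, mouse limb muscle replaces its embryonic and neonatal myosins with adult fast forms.

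The tissue labels were borne out by defining markers. The 6 ventricular cardiomyocyte markers measured summed to signals between 17422 and 18030 in the heart arrays and between 1246 and 1862 in the skeletal muscle arrays. The log2 signals of arrays of skeletal muscle correlated at 0.991 to 0.994 with each other and at 0.903 to 0.916 with heart arrays. The mean signal of an array lay between 201.8 and 252.4, with overlap between the tissues, but the median was 40.25 to 44.15 in skeletal muscle and 29.54 to 34.56 in heart. *Tk2* itself had signals of 64.8 ± 3.17 in skeletal muscle and 75.2 ± 5.98 in heart (SD, n = 3 each), with a difference of -0.17 that did not pass the test (adjusted p = 0.214).

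Several arrays stood apart from the others of their tissue. *Myl7*, the atrial regulatory myosin light chain, had heart signals of 13.34, 580.16 and 2640.71 in replicates 1, 2 and 3. *Bmp10*, an atrial growth factor, had heart signals of 6.49, 1739.64 and 4886.29 in the same order. *Nppa*, which encodes atrial natriuretic peptide, had 705.04, 2826.35 and 5742.27. Heart replicate 1 was the lowest heart array for 8 of the 10 atrial markers measured and replicate 3 the highest for 9, and the summed atrial signal was 1500, 8292 and 22482. The difference of *Myl7* was -4.11 with all arrays, -5.91 without heart replicate 1 and -2.66 without heart replicate 3. In heart, 4 of the 10 atrial markers were called higher with all arrays, and between 2 and 6 when 1 array was left out, so atrial genes are reported per array below.

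Skeletal muscle replicate 1 held genes of lymphoid tissue. *Glycam1*, an adhesion molecule of lymph node vessels, had skeletal muscle signals of 2309.74, 25.85 and 26.42, and *Cxcl13*, a chemokine of B-cell follicles, had 933.31, 39.5 and 54.52; both genes were picked after their values were seen. *Cd79b*, part of the B-cell receptor, had 246.45, 40.8 and 47.28, and *Ptprc*, the common leukocyte antigen CD45, had 419.06, 104.14 and 98.22. The 10 thymus and T-cell markers summed to 482, 188 and 171 in skeletal muscle, and to 139 to 170 in heart. The 5 B-cell markers summed to 459, 93 and 100 in skeletal muscle, and none of them passed the test between the tissues.

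Skeletal muscle replicate 2 was the brightest of its tissue for 20 of the 20 fast fibre genes called. It was also the brightest for 72 of the 72 respiratory chain genes measured. Its mean signal over all probe sets was the highest of its tissue too, at 252.4 against 216.5 and 201.8. Of the 9 slow fibre genes called higher in skeletal muscle, it was the highest array for 4 and the lowest for 5. *Xist*, which is expressed from the inactive X chromosome of females, had signals of 1.45, 1.48 and 1193.23 in skeletal muscle against 1499.62, 0.02 and 1549.83 in heart. *Kdm5d*, a Y-linked demethylase, had 763.51, 811 and 36.7 in skeletal muscle, while the heart arrays gave 26.75, 682.52 and 8.43. By these genes the skeletal muscle arrays were of 2 males and 1 female and the heart arrays of 1 male and 2 females, and both tissues held both sexes. Arrays of replicate number 1 differed in sex, so that at least this number did not join the tissues of one mouse.

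**Figure D1:**
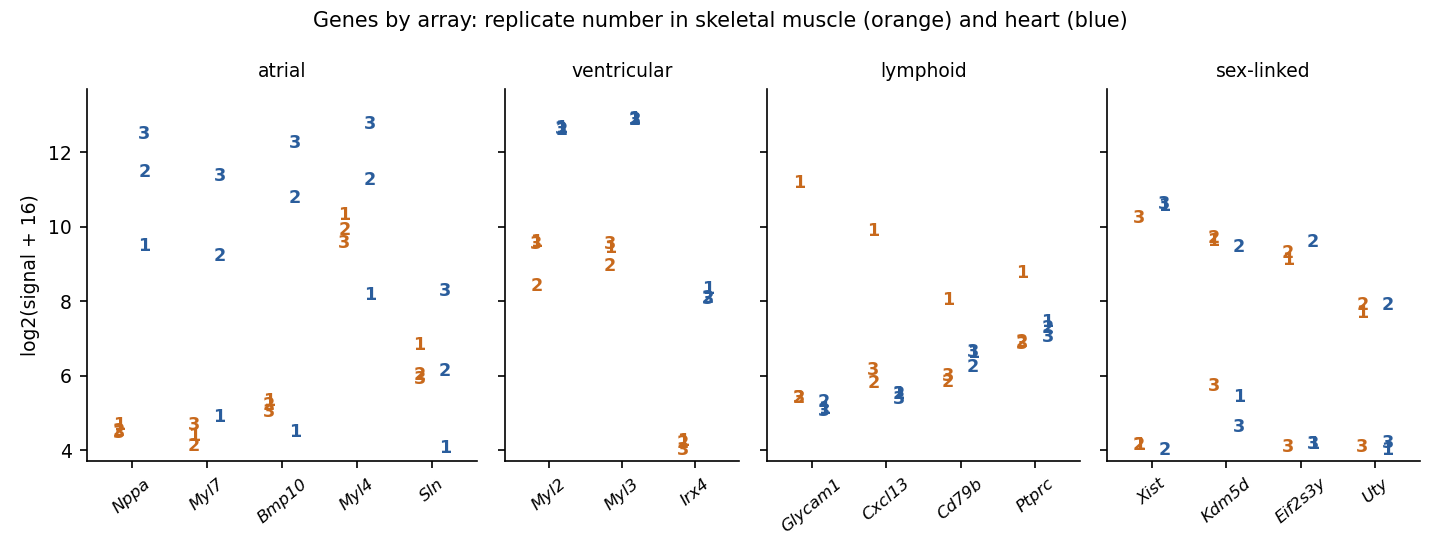
Signals by array for atrial, ventricular, lymphoid and sex-linked genes on the log2(signal + 16) axis; each digit is the replicate number of an array, orange for skeletal muscle and blue for heart. Heart replicate 1 lies among or below the skeletal muscle arrays for *Myl7*, *Bmp10*, *Myl4* and *Sln*, the 3 heart arrays coincide for the ventricular genes *Myl2*, *Myl3* and *Irx4*, and skeletal muscle replicate 1 stands above all others for the lymphoid genes.

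The tissues differed in many genes, and since each array reads a whole tissue, fewer cells of a type and less RNA per cell cannot be told apart in any of them. With a difference of at least 2-fold, 734 genes were higher in skeletal muscle (3.9% of the 18820 tested) and 742 in heart (3.94%). Without regard to size, 4995 genes were higher in skeletal muscle (26.5%) and 3282 in heart (17.4%). This smaller-difference split depended on how the arrays were scaled, since the median difference of all genes was 0.12 on the deposited scale and -0.01 after quantile normalization of the 6 arrays. The split was 3444 against 3888 after quantile normalization and 2998 against 4533 after centring each array on its median. The excess in skeletal muscle lay in dim genes, and the brighter genes went the other way. Of 8708 genes with mean signals of at most 64 in both tissues, 2944 were higher in skeletal muscle and 192 in heart. After quantile normalization these counts were 703 and 921. Of the 10112 brighter genes, 2051 were higher in skeletal muscle and 3090 in heart, or 2741 and 2967 after quantile normalization. Of the genes at least 2-fold higher, quantile normalization kept 629 of 734 in skeletal muscle and 643 of 742 in heart, and none changed sign.

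**Figure D2:**
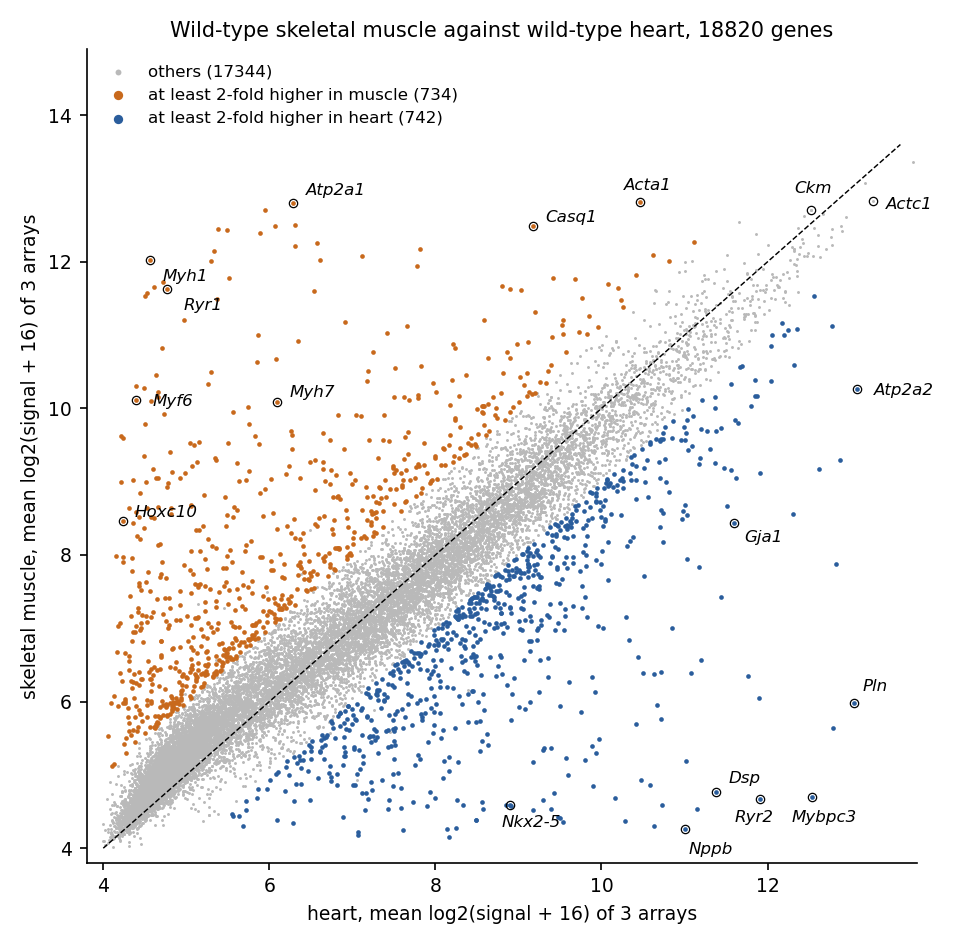
Mean log2(signal + 16) of 18820 genes in 3 skeletal muscle arrays (vertical axis) against 3 heart arrays (horizontal axis); coloured points passed the test with a difference of at least 2-fold, 734 higher in skeletal muscle (orange) and 742 higher in heart (blue), and the dashed line marks equal values. *Actc1* and *Ckm* lie near the line at high signal in both tissues, and *Mybpc3*, *Ryr2* and *Pln* lie near the bottom of the skeletal muscle axis.

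Genes of the sarcomere and of calcium handling were among the largest differences in either direction. *Myh1*, the fast myosin heavy chain IIx, had signals of 3824.6, 4699.64 and 3942.57 in skeletal muscle against 19.67, 4.77 and 1.93 in heart. The groups were far apart and the difference was 7.45 ± 0.21 (SE), or 175-fold on the offset scale (adjusted p = 4.27e-11). *Mybpc3*, cardiac myosin binding protein C, had 11.02, 7.85 and 10.83 in skeletal muscle, while the heart arrays gave 6288.69, 5834.71 and 5703.03. Its difference was -7.85 ± 0.11, or 230-fold higher in heart (adjusted p = 4.27e-13). The offset of 16 makes such folds understate the change where one tissue is near 0. Among genes whose groups did not overlap, the 15 largest differences towards skeletal muscle ran from 6.26 to 7.45 and were those of *Myh1*, *Tnnc2*, *Ampd1*, *Mybpc1*, *Sypl2*, *Myh2*, *Actn3*, *Ryr1*, *Myoz1*, *Pvalb*, *Mylpf*, *Atp2a1*, *Neb*, *Tnnt3* and *Car3*. The 15 largest towards heart ran from -5.49 to -7.85 and were those of *Mybpc3*, *Ryr2*, *Tnni3*, *Pln*, *Nppb*, *Nppa*, *Dsp*, *Tbx20*, *Nebl*, *Lrrc10*, *Fhl2*, *Chrm2*, *Corin*, *Tnni3k* and *Mylk3*. *Ampd1*, the muscle AMP deaminase, *Car3*, a carbonic anhydrase of slow fibres and fat, and *Pvalb*, a calcium buffer of fast fibres, were the members of the first list outside the contractile and membrane apparatus. The second list also held genes of other roles, among them *Nppb*, *Nppa* and *Corin* of the natriuretic peptides, *Dsp* of the desmosome, the transcription factor *Tbx20* and the receptor *Chrm2*.

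Genes of fast fibres set skeletal muscle apart. Of 23 measured, 20 were higher in skeletal muscle and none in heart, with a median difference of 5.68 beside 0.12 for all genes. *Myh4*, the fastest myosin heavy chain, differed by 6.2, *Myh2*, the IIa chain, by 7.0, *Tnni2*, the fast inhibitory troponin, by 5.90, and *Mybpc2*, the fast myosin binding protein C, by 5.68. *Tpm2*, encoding beta-tropomyosin and picked after its value was seen, had 3896.34, 5167.87 and 3969.9 in skeletal muscle against 125.64, 116.22 and 125.03 in heart, a difference of 4.97. The 3 fast fibre genes that did not pass were *Tpm1* (-0.17), which encodes the alpha-tropomyosin that both tissues use, *Tcap* (-0.23), a titin cap protein, and *Mylk4* (-0.15), a myosin light chain kinase. The summed fast fibre signal of skeletal muscle was 73297, 98986 and 76977 in replicates 1 to 3. Within heart, replicate 1 had the highest signal of the 3 heart arrays for 16 of the 20 fast fibre genes called. An example is *Pvalb*, with heart signals of 98.16, 39.22 and 21.38 against 5884.43 to 8023.77 in skeletal muscle. Whether traces of other tissue contributed to these heart signals was not tested.

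Slow fibre genes did not move as 1 group. Of 14 measured, 9 were higher in skeletal muscle and 4 in heart, with a median of 2.47. *Mybpc1*, slow myosin binding protein C, differed by 7.05 and *Ankrd2*, a stretch-responsive ankyrin repeat protein, by 5.53. *Myh7*, the slow myosin heavy chain of slow fibres and of fetal ventricle, had signals of 1427.28, 627.89 and 1387.42 in skeletal muscle against 70.99, 36.45 and 54.15 in heart, so that the gene was higher in skeletal muscle at this age by 4.0 ± 0.27 (adjusted p = 1.89e-07). *Tnni1*, the slow inhibitory troponin that the fetal heart also uses, had 474.49, 230.22 and 478.58 against 56.33, 11.86 and 41.91. Skeletal muscle replicate 2 was the lowest of its tissue for both genes. The 4 members higher in heart were *Csrp3* (-2.84), a LIM protein of the Z-disc, *Myoz2* (-1.72), a calcineurin-binding Z-disc protein, *Hspb7* (-0.75), a small heat shock protein, and *Myh7b* (-0.64), a slow myosin whose signals were at most 77.31. Unlike *Myh7*, 3 other genes listed as cardiac that slow fibres also use were higher in heart. *Tnnc1*, the slow and cardiac calcium-binding troponin, had 517.4, 190.82 and 475.44 in skeletal muscle, while the heart arrays gave 5431.08, 4740.04 and 5001.7, a difference of -3.74. *Myl2* and *Myl3*, the ventricular regulatory and essential light chains, differed by -3.45 and -3.58.

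Developmental isoforms were still present in skeletal muscle. *Myh3*, embryonic myosin heavy chain, had signals of 3289.65, 2204.99 and 3208.4 in skeletal muscle against 25.85, 45.79 and 11.14 in heart, a difference of 6.12. *Myh8*, the neonatal chain, had 1946.1, 881.98 and 830.56 against 6.28, 16.84 and 6.27, a difference of 5.49. Both genes separated the tissues without overlap, and replicate 1 was the highest skeletal muscle array for each. *Actc1*, cardiac alpha-actin, which skeletal muscle also uses before birth, had 6655.63, 8765.23 and 6564.51 in skeletal muscle, while the heart arrays gave 9747.34, 10116.83 and 9760.99. Its difference was only -0.44 (adjusted p = 0.0164) and -0.20 after quantile normalization, and it did not pass without skeletal muscle replicate 1 (-0.38) or 3 (-0.37), while that of *Acta1*, skeletal alpha-actin, was 2.35. *Chrng*, the fetal subunit of the acetylcholine receptor, had 55.97, 47.18 and 42.73 against 16.05, 27.24 and 16.96, a difference of 0.85, beside 4.08 for *Chrne*, the subunit that replaces it in the adult.

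Of 22 cardiac sarcomere genes measured, 17 were higher in heart and 2 in skeletal muscle, with a median of -3.51. *Tnni3*, cardiac inhibitory troponin, had signals of 31.6, 38.08 and 32.66 in skeletal muscle against 6767.72, 7327.34 and 7102.38 in heart, a difference of -7.14. *Nebl*, the cardiac member of the nebulin family, differed by -6.13, *Tnnt2*, cardiac troponin T, by -4.94, and *Mylk3*, the cardiac myosin light chain kinase, by -5.49. The members higher in skeletal muscle were *Myh7* and *Alpk3*, an alpha-kinase of both striated muscles, at 0.95. *Actn2* (-0.32), *Myl4* (-0.78) and *Mybphl* (-2.13) did not pass. The latter pair are atrial genes, and *Myl4*, the atrial essential light chain that fetal skeletal muscle also uses, had 1261.47, 955.94 and 745.57 in skeletal muscle against 269.05, 2417.68 and 6874.44 in heart. The heart arrays lay on both sides of the skeletal muscle arrays. *Myh6*, the main adult cardiac myosin heavy chain, had no probe set assigned to it alone and was not analysed here.

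Genes of structures that both tissues build differed less than the fast fibre and cardiac sarcomere genes. Of 24 sarcomere genes listed for both tissues, 8 were higher in skeletal muscle, 5 in heart and 11 did not pass, with a median of 0.02. Of all 18820 genes, 26.5% were higher in skeletal muscle and 17.4% in heart, so on the deposited scale these 24 were called no less often than genes in general. The count in heart was 2 without skeletal muscle replicate 1 or 3, 3 without heart replicate 1 or 3, 8 without skeletal muscle replicate 2 and 9 after median centring. *Ttn*, the giant spring protein titin, had 4379.71, 5492.99 and 4494.51 in skeletal muscle, while the heart arrays gave 4261.92, 4256.47 and 3818.74, and *Des*, the intermediate filament desmin, had 3354.06, 4440.6 and 3284.12 against 3453.21, 3328.27 and 3540.58. The difference was 0.21 for *Ttn* and 0.09 for *Des*, and neither passed. Among those that passed were *Myom3*, an M-band protein, at 3.98, and *Synpo2*, an actin-binding protein that smooth muscle also makes, at -3.15.

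The skeletal and cardiac members of single gene families diverged in a near mirror. Of 33 families listed, 28 had both members measured, and in 24 of these the skeletal member was higher in skeletal muscle and the cardiac member higher in heart. Counted singly, 28 of 31 measured skeletal members were higher in skeletal muscle and none in heart, and 26 of 28 measured cardiac members were higher in heart and none in skeletal muscle. The families were listed with knowledge of where their members are used, so these counts describe how far the arrays follow that knowledge. The remaining pairs were actinin, where *Actn2* gave -0.32 (adjusted p = 0.0532), junctophilin, where *Jph2* gave 0.25 (adjusted p = 0.154), the calcium pump regulators, where *Sln* gave 0.10, and the muscle microRNAs, where *Mir206* gave 0.16. *Sln*, sarcolipin, is an inhibitor of the calcium pump in skeletal muscle and atria, and its heart signals of 0.62, 53.16 and 291.75 followed the atrial genes array by array. In glycogen phosphorylase the cardiac member moved more. *Pygb*, the brain form, had 155.56, 161.57 and 150.72 in skeletal muscle against 2771.95, 2693.4 and 2839.35 in heart, a difference of -4.02, while *Pygm*, the muscle form, differed by 0.88.

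**Figure D3:**
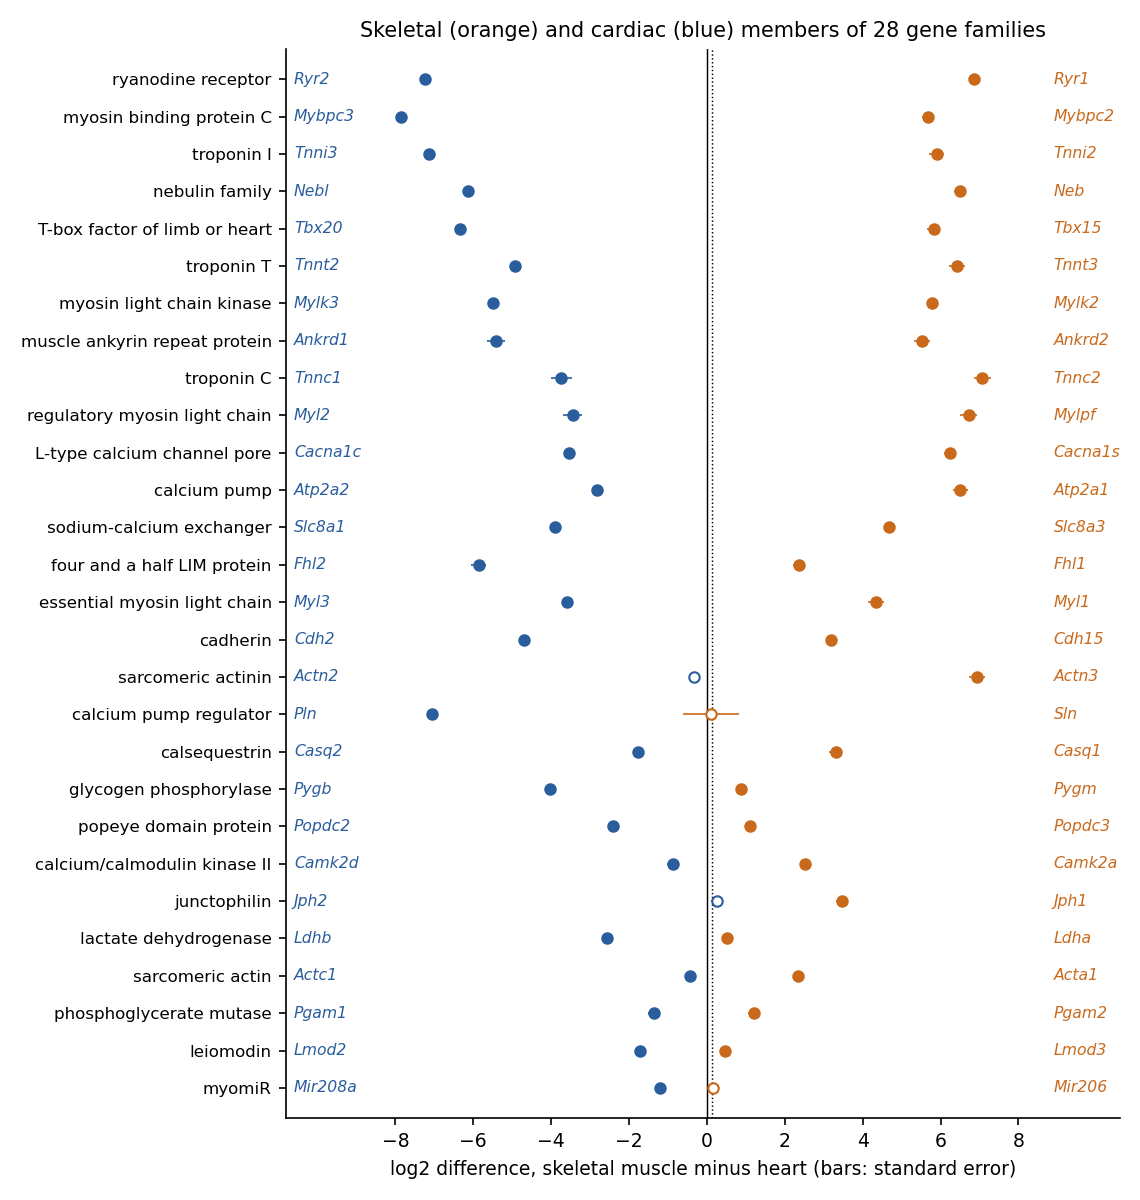
Log2 difference of the skeletal member (orange) and the cardiac member (blue) of 28 gene families, with standard errors from 3 arrays per tissue; filled points passed the test, open points did not, the solid line marks 0 and the dotted line the median of all genes, 0.12. In 24 families the filled points lie on opposite sides of 0; the open points are *Actn2*, *Jph2*, *Sln* and *Mir206*.

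Promoter sequences of 5 genes named above are printed: those of *Myh1*, *Mybpc3* and *Nppb* from the ends of the comparison, and those of the actin pair. They are from RefSeq on the GRCm38.p6 build and run 5′ to 3′ on the strand of the gene, from 250 bases before to 50 after the start of the transcript. Capitals mark matches to 4 motifs searched on both strands: the MEF2 box, the CArG box bound by serum response factor, the E-box CAGCTG, which factors of the MyoD family bind, and AGATAA, a site of zinc finger factors such as the product of *Gata4*. Each of the 5 promoters printed holds a match. Many others at the ends of the comparison hold none, among them those of *Tnnc2*, *Myh2*, *Ryr1*, *Ryr2*, *Tnni3*, *Dsp*, *Tbx20*, *Chrm2* and *Corin*.
*Myh1* (chr11:67199852-67200151, plus strand, MEF2 box): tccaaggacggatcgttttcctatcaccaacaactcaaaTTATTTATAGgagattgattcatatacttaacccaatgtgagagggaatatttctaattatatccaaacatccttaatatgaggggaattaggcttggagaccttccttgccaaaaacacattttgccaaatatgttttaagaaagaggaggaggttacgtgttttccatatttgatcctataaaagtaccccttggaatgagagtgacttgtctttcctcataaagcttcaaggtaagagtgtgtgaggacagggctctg
*Acta1* (chr8:123894726-123895025, minus strand, CAGCTG and CArG box): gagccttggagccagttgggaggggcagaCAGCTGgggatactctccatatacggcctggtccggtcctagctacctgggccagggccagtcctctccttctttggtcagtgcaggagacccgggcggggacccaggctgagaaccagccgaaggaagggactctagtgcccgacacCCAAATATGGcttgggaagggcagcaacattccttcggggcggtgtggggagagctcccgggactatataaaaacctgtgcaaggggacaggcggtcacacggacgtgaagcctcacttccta
*Actc1* (chr2:114052826-114053125, minus strand, CArG box): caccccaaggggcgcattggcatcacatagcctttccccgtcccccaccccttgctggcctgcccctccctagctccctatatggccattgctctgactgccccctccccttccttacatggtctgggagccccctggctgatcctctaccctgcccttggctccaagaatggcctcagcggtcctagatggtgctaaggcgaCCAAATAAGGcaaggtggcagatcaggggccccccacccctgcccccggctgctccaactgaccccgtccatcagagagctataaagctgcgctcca
*Mybpc3* (chr2:91117894-91118193, plus strand, CAGCTG and MEF2 box): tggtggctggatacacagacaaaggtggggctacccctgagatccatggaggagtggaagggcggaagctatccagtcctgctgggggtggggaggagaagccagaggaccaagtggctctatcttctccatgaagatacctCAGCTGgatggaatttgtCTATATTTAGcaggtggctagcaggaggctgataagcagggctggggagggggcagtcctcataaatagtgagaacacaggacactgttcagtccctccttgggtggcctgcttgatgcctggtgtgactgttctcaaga
*Nppb* (chr4:147985650-147985949, plus strand, CAGCTG and AGATAA): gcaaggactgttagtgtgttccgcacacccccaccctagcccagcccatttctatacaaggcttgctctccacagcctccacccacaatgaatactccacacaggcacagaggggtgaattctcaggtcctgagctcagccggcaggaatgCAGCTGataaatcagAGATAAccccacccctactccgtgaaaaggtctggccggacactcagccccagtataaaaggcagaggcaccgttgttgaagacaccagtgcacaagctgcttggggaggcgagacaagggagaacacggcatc

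Over 27025 promoters of this length, CAGCTG was found in 18.3%, the MEF2 box in 3.7%, the CArG box in 1.81% and AGATAA in 12.7%. Of the 18820 genes tested, 14749 had a promoter sequence, with shares of 18.2%, 3.08%, 1.64% and 10.7% in the same order. Of the 734 genes at least 2-fold higher in skeletal muscle, 525 had a promoter sequence, and CAGCTG was in 28% of these, the MEF2 box in 5.14%, the CArG box in 2.48% and AGATAA in 8.95%. Of the 742 genes at least 2-fold higher in heart, 562 had one, with CAGCTG in 22.8%, the MEF2 box in 4.27%, the CArG box in 3.02% and AGATAA in 10.3%. A match states only that these letters stand in this window, and no test was made of the shares.

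Several of the family pairs counted above belong to calcium handling, and the values of their members are given here. *Ryr1*, the skeletal ryanodine receptor that releases stored calcium, had signals of 2912.61, 3637.45 and 2973.61 in skeletal muscle, while the heart arrays gave 16.62, 11.06 and 6.76, a difference of 6.87 or 117-fold. *Ryr2*, its cardiac counterpart, had 11.38, 8.26 and 8.75 against 3868.58, 3880.83 and 3729.53, a difference of -7.24 or 151-fold higher in heart. The ranges of each gene in the tissues were apart by more than 2 orders of magnitude in signal. *Cacna1s*, the voltage sensor of skeletal triads, differed by 6.23, and *Cacna1c*, the cardiac L-type calcium channel, by -3.54. *Atp2a1*, the fast fibre calcium pump, had 6328.2, 8369.61 and 6803.73 against 91.88, 49.62 and 51.42, a difference of 6.51, and *Atp2a2*, the cardiac and slow fibre pump, differed by -2.81. *Pln*, phospholamban, the brake on the cardiac pump, had 47.87, 43.06 and 50.07 against 8166.64, 8688.38 and 8489.59, a difference of -7.07. *Casq1* and *Casq2*, the calcium stores of the reticulum, differed by 3.31 and -1.77. *Slc8a1* and *Slc8a3*, sodium-calcium exchangers, differed by -3.89 and 4.67.

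Of the 40 triad and calcium genes measured, 20 were higher in skeletal muscle and 11 in heart, with a median of 0.48. *Sypl2*, mitsugumin 29 of the triad membrane, differed by 7.04 and *Cacng1*, the gamma subunit of the skeletal calcium channel, by 6.11. *S100a1*, a calcium sensor that binds ryanodine receptors, differed by -1.70. *Jph2* (0.25), which ties the surface membrane to the reticulum, *Srl* (0.26), sarcalumenin, and *Hrc* (-0.02), a calcium-binding protein of the reticulum, did not pass. *Trdn*, the ryanodine receptor partner triadin, picked after its value was seen, differed by 1.15, and *Asph*, the gene of junctin, by -0.78.

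Membrane excitability divided along the same line. Of 38 ion channel, pump and gap junction genes, 8 were higher in skeletal muscle and 24 in heart, with a median of -0.99. *Clcn1*, the chloride channel that stabilises the resting fibre, had signals of 484.43, 669.56 and 496.62 in skeletal muscle against 12.41, 13.06 and 11.79 in heart, a difference of 4.30. *Kcnc4* and *Kcna7*, voltage-gated potassium channels, differed by 3.95 and 3.18, and *Atp1b4*, a divergent member of the sodium pump beta subunits, by 5.92. In heart, *Kcnj5*, a subunit of the potassium channel that acetylcholine opens, had 638.06, 699.1 and 748.13 against 7.25, 6.26 and 3.37, a difference of -5.04. *Kcnip2*, the partner of transient outward potassium channels, differed by -5.19, *Kcnd2*, the pore of such a channel, by -4.33, and *Kcnk3*, a background potassium channel, by -4.49. *Gja1*, connexin 43 of the gap junctions, differed by -3.16. The pacemaker genes *Hcn4* and *Cacna1g* differed by -1.69 and -2.20. They belong to a list of 9 conduction system markers that did not move as 1 group. Of these 9, 6 were higher in heart and 3 in skeletal muscle, with a median of -0.85.

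The joints between cells also differed. Of 18 genes of the intercalated disc and of adhesion, 13 were higher in heart and 3 in skeletal muscle, with a median of -1.0. *Dsp*, desmoplakin, which anchors desmin at desmosomes, had signals of 17.95, 7.83 and 9.08 in skeletal muscle, while the heart arrays gave 2627.74, 2668.94 and 2632.98, a difference of -6.61. *Pkp2*, *Dsg2* and *Dsc2*, the other desmosomal genes named, differed by -4.64, -3.97 and -3.94. *Cdh2*, N-cadherin, differed by -4.69, and *Cdh15*, the M-cadherin of satellite cells, by 3.18. At the neuromuscular junction, 12 of 20 genes were higher in skeletal muscle and 3 in heart, with a median of 0.63. *Chrna1*, the receptor subunit that binds acetylcholine, had 839.45, 820.71 and 635.37 against 3.56, 0.93 and 4.18, a difference of 5.36. *Musk*, the kinase that assembles the junction, differed by 3.22 and *Ache*, which breaks acetylcholine down, by 3.65. Those higher in heart were *Agrn* (-0.67), *Lamb2* (-0.76) and *Prkar1a* (-0.63), which also serve basement membranes and signalling outside the junction.

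Of 32 hormone and neurotransmitter receptors, 6 were higher in skeletal muscle and 17 in heart, with a median of -0.43. The counts were 3 and 16 after quantile normalization and 3 and 17 after median centring. *Chrm2*, the muscarinic receptor through which the vagus slows the heart, had signals of 22.89, 20.62 and 18.45 in skeletal muscle against 1899.33, 2070.54 and 2224.46 in heart, a difference of -5.83. *Adra1b*, an alpha-1 adrenergic receptor, differed by -3.31, *Erbb4*, the neuregulin receptor, by -2.93, and *Agtr1a*, an angiotensin receptor, by -1.22. *Esr1*, estrogen receptor alpha, had 323.44, 348.18 and 260.85 in skeletal muscle against 19.13, 17.52 and 19.07, a difference of 3.23. *Agtr2*, the other angiotensin receptor, also went towards skeletal muscle, by 1.77. So the angiotensin receptors pointed in opposite directions between the tissues. *Glp1r*, the receptor for glucagon-like peptide 1, had heart signals of 12.6, 16.03 and 267.81, high in replicate 3 alone, and did not pass.

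Transcription factors of each lineage separated the tissues. Of 36 myogenic and satellite cell factors, 30 were higher in skeletal muscle and 1 in heart, with a median of 1.81, and after quantile normalization the counts were 29 and 1. *Myod1*, a factor that can turn other cells into muscle, had signals of 416.42, 316.85 and 271.06 in skeletal muscle, while the heart arrays gave 2.54, 7.75 and 3.46, a difference of 4.08. *Myf6*, which marks maturing fibres, differed by 5.72, *Myog*, the differentiation factor myogenin, by 3.61, and *Mymk*, the fusion protein myomaker, by 4.48. The member higher in heart was *Mef2a* (-0.77), and its relative *Mef2c* went the other way (1.48). Of 36 cardiac transcription factors, 22 were higher in heart and 5 in skeletal muscle, with a median of -1.03. *Tbx20*, a T-box factor of the heart, had 5.06, 1.88 and 4.37 against 1469.74, 1528.02 and 1738.44, a difference of -6.33. *Gata4*, *Tbx5*, *Nkx2-5* and *Gata6*, core factors of heart development, differed by -4.85, -4.64, -4.30 and -4.32, and *Myocd*, the coactivator of serum response factor, by -4.49. *Irx4*, a ventricular factor, had 305.09, 254.91 and 252.01 in heart and at most 2.78 in skeletal muscle, a difference of -4.01. *Srf* (-0.30) and *Tead1* (-0.02), which serve both tissues, did not pass.

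Positional genes of the limb followed the tissue as well. *Tbx15*, a limb factor of fast fibres, had signals of 1190.22, 1711.22 and 1297.96 in skeletal muscle against 14.34, 7.28 and 5.63 in heart, a difference of 5.82. The *Hox* genes encode position along the body and the limb. Of 39 listed, 36 were measured, and 33 were higher in skeletal muscle and none in heart, with a median of 0.86 and 17 at least 2-fold. *Hoxc10*, a gene of the hind limb level, had 338.16, 411.46 and 270.98 against 2.58, 3.93 and 1.91, a difference of 4.23. *Hoxa10* differed by 3.84, *Hoxd8* by 3.74, *Hoxc9* by 3.15, *Hoxa9* by 2.95 and *Hoxd10* by 2.68. For *Hoxd8* the skeletal muscle signals were 374.64, 452.53 and 276.58 and the heart signals 10.97, 15.55 and 10.18, and the heart arrays were as low for the others named.

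By cluster, all 10 measured genes of *Hoxa* and 9 of 9 of *Hoxb* were higher in skeletal muscle, with 8 of 9 of *Hoxc* and 6 of 8 of *Hoxd*. In *Hoxb*, however, all values were under 1, and after quantile normalization 4 of the 9 remained called. *Hoxb3* was not dim in either tissue, with 226.71, 344.01 and 169.22 in heart and 366.84, 410.2 and 407.61 in skeletal muscle, a difference of 0.70 that did not pass without skeletal muscle replicate 2 (0.67). Of the 21 *Hox* genes that were dim in both tissues, 18 were called on the deposited scale and 12 after quantile normalization, and over all 36 the call was kept by 27. The genes not called were *Hoxd1* (0.34), *Hoxc12* (0.30) and *Hoxd11* (0.16, or -0.14 after quantile normalization), and *Hoxa11*, a gene of the lower limb, gave 0.78.

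**Figure D4:**
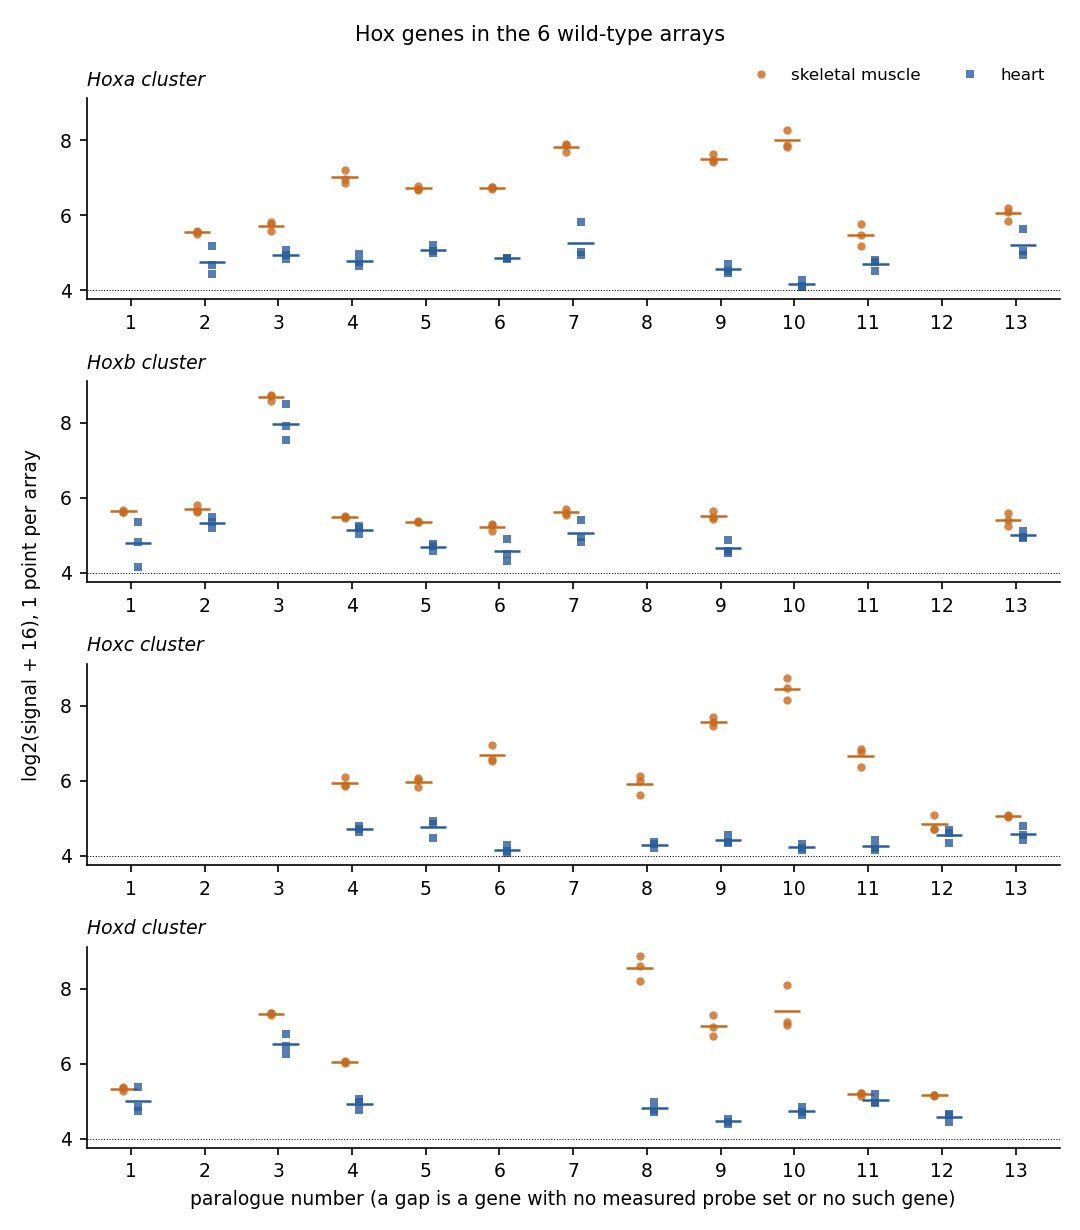
Log2(signal + 16) of the measured *Hox* genes of each cluster by paralogue number, 1 point per array and a bar at the mean of 3 arrays, orange for skeletal muscle and blue for heart; the dotted line is the value of a signal of 0. Wide gaps lie at paralogues 9 and 10 of the *Hoxa*, *Hoxc* and *Hoxd* clusters and at *Hoxd8*, and *Hoxb* genes other than *Hoxb3* lie near the floor in both tissues.

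The muscle microRNAs, which the array reads through probe sets on their genes, are shown by their mature sequences from RefSeq, with the seed (bases 2 to 8) in capitals. The seeds of miR-208a-3p and miR-499-5p differ only in their last base, and miR-206-3p and miR-133b-3p, whose genes are neighbours on chromosome 1, have seeds of their own.
miR-206-3p: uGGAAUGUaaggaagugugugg
miR-133b-3p: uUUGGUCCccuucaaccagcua
miR-208a-3p: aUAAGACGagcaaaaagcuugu
miR-499-5p: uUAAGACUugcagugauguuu

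Of 29 muscle microRNA genes measured, 10 were higher in skeletal muscle and 1 in heart, and after quantile normalization 7 and 3. Their signals were low, with sums of 727 to 848 in skeletal muscle and 375 to 561 in heart. Of the 8708 genes dim in both tissues, 2944 were higher in skeletal muscle and 192 in heart, or 703 and 921 after quantile normalization. The count towards skeletal muscle is thus near the share of dim genes called that way on the deposited scale. The gene higher in heart was *Mir208a*, which lies within the cardiac myosin gene *Myh6*, with signals of 4.56, 6.07 and 6.41 in skeletal muscle, while the heart arrays gave 42.88, 32.09 and 27.24, a difference of -1.20 (adjusted p = 1.49e-05). *Mir133b* had 62.87, 43.21 and 39.23 against 7.74, 21.42 and 10.62, a difference of 1.15. *Mir206*, known as specific to skeletal muscle, was near 0 everywhere, with signals of 7.62, 2.19 and 3.13 against 2.36, 2.08 and 1.93, so its probe set gave no difference to read. *Mir499*, within the myosin gene *Myh7b*, had 12.03 to 14.14 against 8.64 to 10.29 and did not pass. The labelling kit copies whole transcripts, and what these probe sets capture of a mature microRNA was not tested.

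In energy metabolism, 22 of 39 genes of glycogen and glycolysis were higher in skeletal muscle and 10 in heart, with a median of 0.49. *Slc16a3*, the transporter that exports lactate, had signals of 1378.63, 2017.69 and 1398.41 in skeletal muscle against 40.58, 33.53 and 51.82 in heart, a difference of 4.79. *Slc16a1*, the transporter that takes lactate and ketones up, had 308.06, 437.87 and 377.65 against 1852.46, 2077.72 and 2122.38, a difference of -2.39. The lactate dehydrogenase subunits followed: *Ldha* differed by 0.52, or by 0.40 without a call after median centring, and *Ldhb*, the heart subunit, by -2.57. *Phkg1*, a subunit of phosphorylase kinase, differed by 3.52, and the glycerol-3-phosphate dehydrogenases *Gpd1* and *Gpd2* by 2.59 and 3.21. The hexokinase and phosphofructokinase forms *Hk1*, *Pfkp* and *Pfkl* were higher in heart, at -2.38, -2.38 and -2.47. *Gapdh* (-0.10), *Aldoa* (0.17) and *Eno3* (0.10) did not pass. *Ampd1* of the purine nucleotide cycle had 2861.9, 4067.17 and 2864.91 against 11.5, 7.07 and 6.72, a difference of 7.05, while *Ampd3*, its form of other tissues, differed by -1.71. *Ckm*, muscle creatine kinase, gave 0.18 and did not pass, and *Ckb*, the brain form, differed by -1.68. *Gamt* and *Gatm*, which make creatine, differed by 3.31 and 2.64.

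Of 48 genes of fatty acid and ketone oxidation, 38 were higher in heart and 3 in skeletal muscle, with a median of -0.83. *Oxct1*, which activates ketone bodies, had signals of 360.86, 526.53 and 473.36 in skeletal muscle, while the heart arrays gave 1664.04, 1924.41 and 1793.16, a difference of -1.96. *Lpl*, which frees fatty acids from lipoproteins, differed by -1.68, *Hadhb*, of the mitochondrial trifunctional protein, by -1.46, and the regulators *Ppara* and *Ppargc1a* by -1.67 and -1.13. Those higher in skeletal muscle were *Acsl6* (2.38), an acyl-CoA synthetase, *Ucp3* (0.48), an uncoupling protein, and *Bdh1* (0.42), a ketone body enzyme whose signals were dim in both tissues and whose quantile-normalized difference was 0.11. The call of *Ucp3* was lost without skeletal muscle replicate 2 (0.38) and after median centring (0.36), and that of *Bdh1* without either of the skeletal muscle replicates 1 and 2 (0.30 and 0.48) or of the heart replicates 1 and 3 (0.35 each). In the citrate cycle and its shuttles, 24 of 30 genes were higher in heart and 2 in skeletal muscle, with a median of -0.49. The count in heart was 21 after quantile normalization, 27 after median centring, 17 with an offset of 1 and 11 by the methods' t-test after Benjamini-Hochberg adjustment. It was 16 without skeletal muscle replicate 1, skeletal muscle replicate 3 or heart replicate 3. The widest difference was that of *Slc25a13*, citrin, one of a pair of mitochondrial aspartate-glutamate carriers, with 19.11, 11.86 and 17.44 against 752.53, 780.96 and 747.43, a difference of -4.60. Its twin *Slc25a12*, aralar, was higher in skeletal muscle, by 0.52.

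The nuclear genes of the respiratory chain differed by little. Of 72 measured, 52 were higher in heart and none in skeletal muscle, with a median of -0.47, and 1 gene reached 2-fold. That gene was *Ndufa5*, a complex I subunit, with signals of 485.73, 566.09 and 422.76 in skeletal muscle against 1116.14, 965.48 and 1079.08 in heart, a difference of -1.08. The range of the list ended at *Atp5e*, a subunit of ATP synthase, at 0.08. The summed signal was 146481, 193368 and 148615 in skeletal muscle and 216146 to 224990 in heart, so skeletal muscle replicate 2 stood nearer to the heart arrays than the others did. The count depended on the arrays, the scale and the test: it was 47 after quantile normalization, 65 after median centring, 39 with an offset of 1, 21 by the methods' t-test after Benjamini-Hochberg adjustment, 34 without skeletal muscle replicate 1, 34 without skeletal muscle replicate 3 and 64 at most with another array left out. *Mb*, myoglobin, which stores oxygen, had 1424.71, 2873.95 and 2682.89 against 6911.41, 7335.42 and 6744.58, a difference of -1.65. Of 16 myoglobin, iron and antioxidant genes, 9 were higher in heart and 1 in skeletal muscle. *Sod2*, mitochondrial superoxide dismutase, differed by -0.79. Mitochondrial ribosomal proteins, at 10 of 40 higher in heart and 3 in skeletal muscle, had a median of -0.08.

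**Figure D5:**
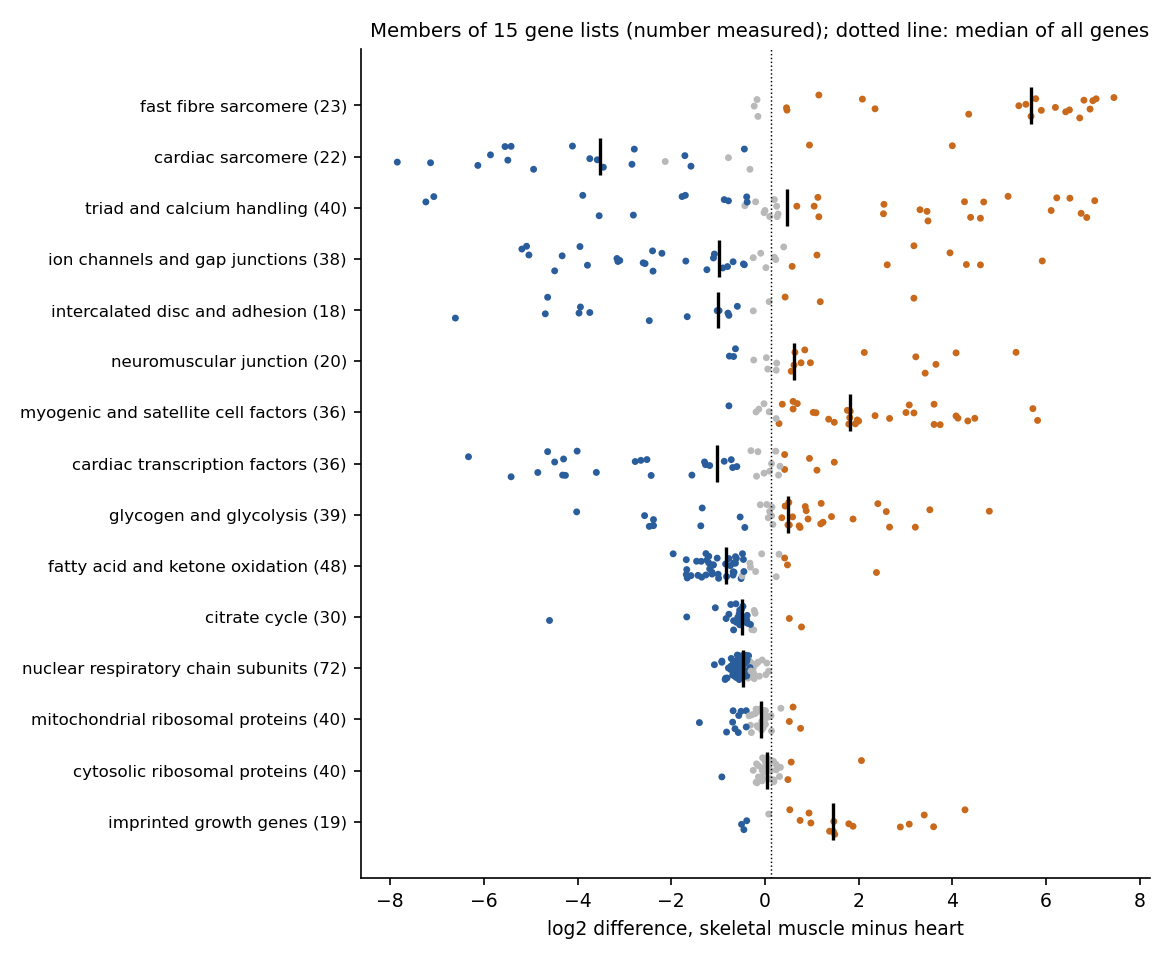
Log2 differences of the measured members of 15 gene lists, 1 point per gene, orange for genes called higher in skeletal muscle, blue for heart and grey for genes that did not pass; black bars mark list medians and the dotted line the median of all genes, 0.12. Fast fibre and cardiac sarcomere genes spread to beyond 7 on either side, and respiratory chain genes lie in a narrow band with a median of -0.47.

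Secreted factors included the natriuretic peptides, hormones by which the heart lowers blood volume. *Nppb*, brain natriuretic peptide, had signals of 4.51, 1.21 and 3.75 in skeletal muscle, while the heart arrays gave 1837.78, 1716.67 and 2659.52, a difference of -6.74, and *Corin*, the protease that activates them, differed by -5.72. *Nppa* differed by -6.62, with the unequal heart arrays given above. *Nppc*, C-type natriuretic peptide, was higher in skeletal muscle, at 273.68, 132.65 and 155.41 against 20.22, 20.98 and 18.58, a difference of 2.44. *Mstn*, myostatin, which limits muscle growth, differed by 4.41 and *Ostn*, the muscle hormone musclin, by 1.41. *Fgf16*, a growth factor of the heart, differed by -3.56.

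Imprinted growth genes, which are expressed from one parental copy and decline after birth, were mostly higher in skeletal muscle. Of 19 measured, 15 were higher in skeletal muscle and 3 in heart, with a median of 1.46. *Dlk1*, a membrane protein of fetal and regenerating muscle, had signals of 1363.57, 927.39 and 832.51 in skeletal muscle against 65.3, 29.9 and 25.1 in heart, a difference of 4.27. *Meg3*, the non-coding RNA of the same cluster, had 2899.51, 1531.01 and 1980.71 against 174.86, 126.03 and 169.13, a difference of 3.6, and *Mir323*, a microRNA gene of that cluster picked after its value was seen, differed by 3.97 with unequal skeletal muscle signals of 1176.4, 316.45 and 640.99. *Cdkn1c*, the cyclin-dependent kinase inhibitor p57, differed by 3.08, *Igf2*, the fetal growth factor, by 1.47, and *Igf2r*, the receptor that clears it, by -0.50. Skeletal muscle replicate 1 was the highest array for *Dlk1* and *Meg3*.

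Genes of cell division did not separate the tissues as a group. Of 40 measured, 3 were higher in skeletal muscle and 6 in heart, with a median of -0.05. Replicate 1 was the highest array of its tissue for many of them, in skeletal muscle as in heart. *Mki67*, the proliferation antigen Ki-67, had signals of 348.33, 218.1 and 166.76 in skeletal muscle, while the heart arrays gave 355.05, 183.37 and 146.99, with full overlap and a difference of 0.12 that did not pass. Without heart replicate 1 the counts were 9 and 6. Among D-type cyclins and their kinase partners, *Ccnd2* differed by -1.53, *Ccnd1* by -0.64 and *Cdk6* by -1.69, while *Ccnd3* (0.07) and *Cdk4* (-0.14) did not pass. *Rpl3l*, a ribosomal protein used in place of *Rpl3* in striated muscle, had 1603.65, 1973.13 and 1381.85 in skeletal muscle against 330.73, 440.59 and 376.27 in heart, a difference of 2.06, and *Rpl3* itself differed by -0.92. Of 40 cytosolic ribosomal protein genes, 3 were higher in skeletal muscle and 1 in heart, with a median of 0.04. After quantile normalization the counts were 11 and 1, and without skeletal muscle replicate 3 they were 6 and 1.

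Genes of the extracellular matrix were called in both directions. Of 46 collagen and matrix genes, 14 were higher in skeletal muscle and 18 in heart, with a median of -0.04, and the latter count was 11 after quantile normalization, 11 without skeletal muscle replicate 3 and 10 without heart replicate 1. *Col1a1*, the main fibrillar collagen, had signals of 3441.27, 3414.26 and 3075.86 in skeletal muscle, while the heart arrays gave 1215.13, 831.32 and 1192.14, a difference of 1.62, and *Col1a2* and *Col3a1* differed by 1.45 and 0.93. *Fbln1*, a matrix protein of heart valves and vessels, had 122.69, 152.37 and 138.31 against 651.98, 700.92 and 881.56, a difference of -2.30. Fibronectin (*Fn1*, 0.06) and *Sparc* (-0.14) did not pass.

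Markers of other cell types were counted because both tissues are mixtures. Tendon markers were higher in skeletal muscle in 6 of 7 cases, and *Tnmd*, tenomodulin of tendon cells, had signals of 70.14, 136.36 and 214.8 in skeletal muscle and 5.18 to 7.02 in heart. The summed tendon signal was 1006 to 1876 in skeletal muscle and 353 to 566 in heart. Schwann cell and nerve markers were higher in skeletal muscle in 5 of 8 cases and in heart in none, with sums of 3071 to 3742 against 1720 to 1835. Endothelial markers were higher in heart in 9 of 15 cases, with sums of 8565 to 10655 in skeletal muscle and 12499 to 15148 in heart. *Pecam1* and *Cdh5*, defining endothelial genes, gave -0.26 and -0.31 and did not pass, while *Kdr* and *Flt1*, receptors for vascular endothelial growth factor, differed by -1.0 and -0.96. Epicardial markers were higher in heart in 7 of 9 cases, and *Wt1*, a factor of the epicardium, had 12.38, 8.88 and 7.57 against 103.19, 138.4 and 152.22. Macrophage markers were higher in heart in 7 of 13 cases and in skeletal muscle in 1, with sums of 1803 to 2601 against 2649 to 3336. This list includes *Ptprc*, which was high in skeletal muscle replicate 1. Of 13 erythroid markers listed, 4 were measured, and 3 were higher in heart and 1 in skeletal muscle. Their sums were 241 to 517 in skeletal muscle and 1170 to 1956 in heart. The part of all these cell types in the differences above was not tested.

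Lists for liver, lung epithelium and skin keratinocytes, which neither sample should hold, were counted too. The 7 liver markers summed to 136 to 177 in skeletal muscle and 132 to 248 in heart, and 2 were called higher in skeletal muscle and 1 in heart. The latter was *Ahsg*, fetuin A, with heart signals of 19.12, 40.47 and 145.15 against 5.77, 3.41 and 5.77, a difference of -1.71. The 9 lung epithelium markers summed to 265 to 295 against 139 to 196, and 4 of them were called higher in skeletal muscle, or 2 after quantile normalization and without skeletal muscle replicate 1 or heart replicate 3. *Nkx2-1*, a lung and thyroid factor, had 128.88, 135.35 and 120.73 against 63.72, 79.42 and 49.31, and the surfactant gene *Sftpc* was under 14 in all 6 arrays. The keratinocyte markers summed to 675 to 826 against 404 to 503, and 3 of 8 were called higher in skeletal muscle. Beside these lung and keratinocyte counts, 26.5% of all genes tested were called higher in skeletal muscle. Among the 8708 genes dim in both tissues, 2944 were called that way, or 703 after quantile normalization. Fibroblasts and adipocytes are not among these foreign tissues, and both samples may hold them. Fibroblast markers, at 3 of 11 higher in skeletal muscle and 5 in heart, summed to 14831 to 17157 against 12149 to 15287. Adipocyte markers were higher in skeletal muscle in 5 of 7 cases and in heart in 1, with overlapping sums of 2279 to 2835 and 2727 to 3336.

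The same contrast in the knockout arrays was laid beside the wild-type one as a description. Of the 734 genes at least 2-fold higher in wild-type skeletal muscle, 729 (99.3%) had the same direction in *Tk2*-/- mice, with a median difference of 1.61 in wild-type and 1.83 in knockout. Of the 742 genes at least 2-fold higher in wild-type heart, 643 (86.7%) had the same direction, with medians of -1.49 and -0.80. The knockout heart arrays were dimmer in sum, with mean signals of 153.8, 168.4 and 146.7, and what part the scale of those arrays had was not tested. In the first set 2 genes, and in the second 31, had knockout groups that lay apart in the opposite direction. *Myh7* had a difference of 4.0 in wild-type and 1.65 in knockout. *Egln3*, an oxygen-sensing prolyl hydroxylase picked after its values were seen, was higher in wild-type heart, with 374.64, 772.19 and 739.35 against 1262.3, 1819.27 and 1921.7 and a difference of -1.43, and gave 3.22 in knockout.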

How the data were processed

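The authors extracted total RNA from hind limb skeletal muscle and heart, labelled it and hybridised it to Affymetrix Mouse Gene 1.1 ST arrays. The deposited values are linear intensity signals, 1 per probe set and array, which the submitters' processing notes tie to Affymetrix Expression Console and PLIER, and the methods say only that they were normalized; the background correction, normalization method and versions are not given in the sources used here. No detection calls were used. The number of arrays limits the precision of every value.

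Of 35556 probe sets, 21218 had 1 gene symbol in the platform annotation, 1881 had several and 12457 had none; the first were kept, and the brightest probe set stood for each of 18820 genes (1386 had more than 1). Symbols were looked up in a RefSeq table, which held 21185 of them, and none changed. Signals were taken as log2(signal + 16). Skeletal muscle and heart were compared with lmFit and eBayes of limma 3.58.1 in R 4.3.3 on the 6 wild-type arrays, with 4 residual and 12.1 total degrees of freedom and Benjamini-Hochberg adjustment at 0.05. On simulated data with 200 changed genes, 25.4%, 88.1% and 97% of those changed by a log2 value of 0.5, 1 and 2 were recovered, with 2 false calls among 142. The real comparison called 4995 and 3282 genes, and the adjustment depends on the share of genes that differ. The simulation therefore does not give the recovery or the false calls of the real comparison. Tables and figures were made with Python 3.11.15. The labels name 3 biological replicates per tissue, and the p-values measure the spread between these. The methods state 3 different mice per genotype, but by the sex-linked genes the tissues did not all come from the same 3 mice. How many wild-type mice were used in all is not given.

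A fixed rule set the genes that could be named. It took the 15 largest differences in each direction with groups that did not overlap, and both members of each gene family pair. It also took every *Hox* and muscle microRNA gene measured, and up to 8 members of each other list with the largest differences. Members against the direction of their list, members described as not passing, *Tk2* and sex-linked genes were included too. Only a part of this set is named in the text, and no further rule is given for that part. Others named are said to have been picked after their values were seen. The comparison, the members of the lists and the tests were chosen with earlier results of these data known.

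Replicate numbers occur in both tissues, and the deviations of same-numbered arrays from their tissue means correlated at 0.149, 0.134 and 0.27 over 9570 genes, above those of differently numbered arrays, so a fit with the number as a block was made. *Xist* and Y-linked genes show that replicate 1 of the tissues came from animals of different sex. The alternatives were other scalings (quantile, median, upper quartile, cyclic loess), offsets, a filter on dim genes, the mean of a gene's probe sets, a 12-array fit, a trended robust prior, array weights, the block, sex as a covariate, the methods' t-test run on the same values, and leaving out each array.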

Additional observations from a re-analysis of the deposited data

Results flagged for a closer look

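Among the called genes named in the report, there were 3 for which the wild-type arrays of the tissues lay apart in one direction and the *Tk2*-/- arrays of the tissues in the other. They are a part of such genes, since 2 genes at least 2-fold higher in wild-type skeletal muscle and 31 at least 2-fold higher in wild-type heart had this pattern. The difference between the genotypes was not tested for any of them. *Egln3*, which encodes an oxygen-sensing prolyl hydroxylase, gave -1.43 in wild-type, with mean signals of 629 in skeletal muscle and 1668 in heart, and 3.22 in knockout, with means of 3036 and 314. *Hspb7*, a small heat shock protein, gave -0.75 in wild-type, with means of 1535 and 2547, and 0.68 in knockout, with means of 2748 and 1699. *Mir323* of the *Dlk1* and *Meg3* cluster gave 3.97 in wild-type, with means of 711 and 28.1, and -0.18 in knockout, with means of 31.6 and 38. The knockout heart arrays had lower mean signals than the wild-type ones, and the part of this in these values was not tested.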

How the results depend on the processing

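The number of genes higher in skeletal muscle, 4995 on the deposited scale, was 2998 after median centring, 2085 without the 8708 dim genes, 2651 by the methods' t-test after Benjamini-Hochberg adjustment, and 3231 to 5299 when 1 array was left out, lowest without heart replicate 3. The number higher in heart, 3282, was 3026 without the dim genes, 2111 by that t-test and 2426 to 3455 with 1 array left out. At 2-fold or more, the 734 genes of skeletal muscle became 1695 with an offset of 1 and 428 with an offset of 64, since the offset sets the folds of dim genes, and 678 to 813 with 1 array left out, and the 742 of heart became 695 to 817. The methods' t-test gave 721 and 734 at a 2-fold change and an unadjusted p under 0.05, and 685 and 710 after Benjamini-Hochberg adjustment. Family pairs that diverged numbered 21 to 25. With the replicate number as a block the counts were 4525 and 3049, at 2-fold or more 741 and 747, 24 pairs and 641 list genes beside 632 without it, so the block moved none of these counts by over 1.5 times. It did so for short lists: in skeletal muscle the genes called of thymus and T-cell markers went from 1 to 4, of sex-linked genes from 0 to 3 (in heart from 2 to 4), of macrophage markers from 1 to 2, of B-cell and of brown adipocyte markers from 0 to 1 each, and of cartilage and bone markers from 5 to 3. Of 172 named genes called, 160 kept direction and call in all 20 alternatives and none reversed. *Bmp10* lost its call without heart replicate 2 (-3.19) or 3 (-2.45) or skeletal muscle replicate 2 (-4.01) or 3 (-3.91) and after quantile normalization (-4.11), among others, and *Myl7* without skeletal muscle replicate 2 (-3.97). *Cd79b*, at 0.13 and not called, lay between -0.58 and 0.52 with 1 array left out and passed at -0.58, without skeletal muscle replicate 1. Why these calls moved was otherwise not tested. Signals near 0 limit what can be read of dim genes, and 3 arrays per tissue limit small differences.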
